A study of Mus musculus with 6 samples.

Results

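Carboxylesterases are serine hydrolases, most of them held in the lumen of the endoplasmic reticulum, that split ester and amide bonds. In the intestinal epithelium they convert ester drugs and prodrugs during uptake, and several also act on diacylglycerol, triacylglycerol and the esters of cholesterol and retinol. The mouse has many more of these genes than humans have, in tandem arrays on chromosome 8. The genes described here are 8 named members of the family, taken by gene symbol, namely 3 of the Ces1 group (Ces1d, Ces1f and Ces1g) and 5 of the Ces2 group (Ces2a, Ces2b, Ces2c, Ces2e and Ces2g). All 8 members had a row in the deposited table of 22700 genes, and all 8 passed the filter on low values, which asked for at least 1 FPKM in at least 2 libraries.

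The 3 KO mice (libraries K79S, K82S and K86S) lacked alk-SMase through a Cre-loxP deletion of exon 2 of Enpp7, and the 3 WT mice (W83S, W89S and W90S) carried no deletion. Both groups were C57BL/6 mice on the same standard pellets, with 1 library of middle small intestinal mucosa per mouse. Age, sex and the promoter that drove Cre are not given in the sources used here. The paper describes the tissue as matched pairs, and the labels do not say which mice belong together.

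Values of single mice are given in the order K79S, K82S, K86S for KO and W83S, W89S, W90S for WT. They are FPKM, that is, fragments scaled to transcript length and to the reads mapped in the library, so levels of different genes may be compared. Gene identifiers in the deposited table stood beside the values of other genes and were put back by rank, which placed 12402 identifiers. As a check of the placing, values with at most 6 decimals were found in 99.7% of the 3649 placed genes with 1 annotated transcript and in 5.80% of the 8748 with several. With the identifiers as deposited these shares were 33.9% and 34.3%. Enpp7 had 605, 129 and 670 FPKM in KO mice and 406, 667 and 495 FPKM in WT mice, and the groups overlapped. These values cover the whole gene and give no level for exon 2 alone, so its loss was not tested. The 9 enterocyte markers summed to between 11638 and 19103 FPKM in every library. Much of this sum was Fabp2, with between 5432 and 11224 FPKM. On the log2 scale 6 of the 9 were higher in KO, against 42.3% of the rows that passed the filter. In 1 of them, Anpep, KO lay above WT without overlap, against 5.9% of these rows. In the comparison of KO and WT given below, 0 of the 9 were called. W83S stood apart, with 38524 FPKM over 6 gastric genes against at most 5.24 FPKM in each other library. A lower number of cells of a type and less RNA per cell cannot be told apart in such bulk tissue.

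The 8 genes lie in 2 blocks of chromosome 8 (mm10, GENCODE M21). The Ces1 members are on the minus strand, Ces1d from 93166068 to 93197838, Ces1f from 93256236 to 93279747 and Ces1g from 93302369 to 93337308. The Ces2 members are on the plus strand and shorter. They run from Ces2a (104734003 to 104741634) through Ces2b (104831572 to 104840093), Ces2c (104847068 to 104854483) and Ces2e (104926260 to 104934672) to Ces2g (104961718 to 104969537).

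Upstream sequence is shown for Ces2e, Ces2a and Ces2c, because these 3 genes carried nearly all of the carboxylesterase RNA described below. Each line gives the 120 bases before the RefSeq transcription start (GRCm38.p6, plus strand), at chr8:104926140-104926259, chr8:104733883-104734002 and chr8:104846948-104847067 in that order. The capitals mark GAACTTT, a run that was chosen after the sequences had been seen.
Ces2e: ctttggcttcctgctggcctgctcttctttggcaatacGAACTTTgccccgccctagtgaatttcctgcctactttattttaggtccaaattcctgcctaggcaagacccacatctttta
Ces2a: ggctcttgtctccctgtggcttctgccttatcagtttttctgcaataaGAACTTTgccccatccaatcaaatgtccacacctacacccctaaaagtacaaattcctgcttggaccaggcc
Ces2c: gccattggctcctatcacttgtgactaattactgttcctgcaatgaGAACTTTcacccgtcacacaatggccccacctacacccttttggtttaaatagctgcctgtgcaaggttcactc

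GAACTTT begins 82, 72 and 74 bases before the start of Ces2e, Ces2a and Ces2c. In the 250 bases before the start it was found on either strand in these 3 of the 5 members with a promoter entry and in 3.28% of 32851 promoter windows. The shorter GAACTT, part of the same run, also stood 53 bases before the start of Ces2g and in 11.5% of all windows. In Ces2e and Ces2a the run is the reverse strand of CAAAGTNC, a core of the sites bound by the nuclear receptor HNF4, which 3.40% of windows held. Ces2e and Ces2g shared an unbroken run of 13 bases close to the start, caaattcctgcct, and Ces2a held its first 11 bases, caaattcctgc. Farther from the start, Ces2a and Ces2e shared a run of 17 bases and Ces2c and Ces2g a run of 13 bases. The half-site AGGTCA of nuclear receptors was found in 1 of the 5, Ces2a, against 14.0% of windows. TATAAA was found only in that of Ces1g, on the minus strand of the gene, against 12.4%. The palindromic HNF1 consensus was in 0 of the 5 and in 0.00913% of windows.

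Ces2e was the most abundant in every library of the carboxylesterases with a placed row, which are the 8 members and Ces1e. It had 446, 488 and 488 FPKM in KO mice and 457, 428 and 574 FPKM in WT mice. The 6 values kept within 1.34-fold, and those of KO lay inside the WT range. In each library Ces2e ranked between 110 and 160 among the 22700 rows. Its SD over the 6 libraries, 0.15 on the log2(FPKM + 1) scale, was above that of only 16.7% of the 13089 rows tested, whose median SD was 0.27.

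Ces2c, a hydrolase of diacylglycerol, triacylglycerol and acylcarnitine, had 142, 185 and 174 FPKM in KO mice and 205, 121 and 190 FPKM in WT mice. Its lowest and highest values were both WT, in W89S and W83S, so the KO values again lay inside the WT range. Ces2a, its close neighbour in level, had 163, 198 and 248 FPKM in KO mice and 159, 84.8 and 217 FPKM in WT mice. The groups overlapped, and W89S was far below the other 5 libraries. The ratio of Ces2e to Ces2a was 5.05 in W89S and between 1.96 and 2.88 elsewhere.

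Ces2e, Ces2a and Ces2c together held between 93.7% (W83S) and 96.8% (K79S) of the summed FPKM of the 8 genes. The sum of all 8 was 776, 908 and 967 FPKM in KO mice and 876, 660 and 1030 FPKM in WT mice. The KO mean of this sum was 884 ± 97.8 FPKM and the WT mean 856 ± 186 FPKM (± SD of 3 mice), with overlapping groups. The 3 Ces1 members made up between 2.03% and 3.96% of it.

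**Figure D1:**
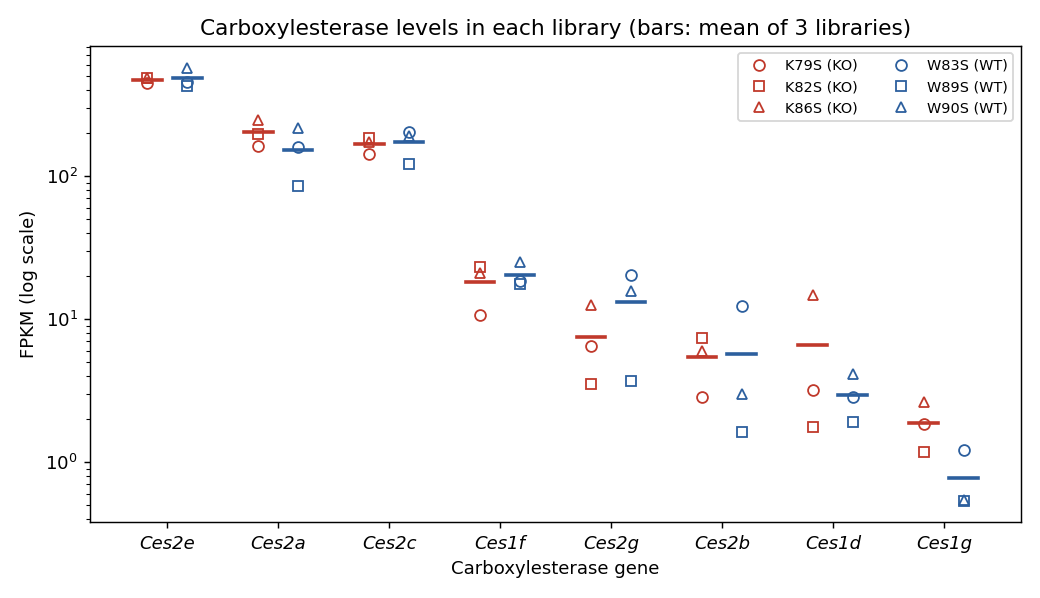
FPKM of the 8 carboxylesterase genes in each library on a log axis, with KO libraries in red, WT libraries in blue and a bar at each group's mean of 3 libraries. Ces2e, Ces2a and Ces2c lie between 84.8 and 574 FPKM, the other 5 genes between 0.539 and 25.1 FPKM, and in each gene the values of KO and WT overlap.

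Ces1f, also named triacylglycerol hydrolase 2, was the leading Ces1 gene. It had 10.7, 23.0 and 20.9 FPKM in KO mice and 18.6, 17.6 and 25.1 FPKM in WT mice. K79S was the lowest library and W90S the highest, and the groups overlapped. Ces1d, the triacylglycerol hydrolase that takes part in the release of stored lipid for lipoprotein assembly in liver, had 3.19, 1.77 and 14.7 FPKM in KO mice and 2.86, 1.90 and 4.12 FPKM in WT mice. The single value in K86S set the KO mean of 6.56 ± 7.10 FPKM apart from the WT mean of 2.96 ± 1.12 FPKM (± SD of 3 mice), while the other 2 KO values lay around those of WT.

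Ces1g had the lowest level of the 8 genes. It had 1.85, 1.18 and 2.63 FPKM in KO mice and 1.22, 0.539 and 0.549 FPKM in WT mice. W83S lay just above K82S, so the groups overlapped, and the other KO values were above those of WT.

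Ces2g and Ces2b were the weaker genes of the Ces2 block. Ces2g had 6.47, 3.51 and 12.5 FPKM in KO mice and 20.3, 3.72 and 15.8 FPKM in WT mice. K82S and W89S, a KO and a WT library, were close to each other at the bottom. Ces2b had 2.86, 7.38 and 5.99 FPKM in KO mice and 12.4, 1.63 and 3.001 FPKM in WT mice, so that the highest and the lowest value were again both WT. Ces2g, Ces2b and Ces2c were highest in W83S, the library with the gastric RNA, and the other members in W90S or K86S. The part of the gastric RNA in these values was not tested.

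In the order of mean FPKM, Ces2e (480), Ces2a (178), Ces2c (170), Ces1f (19.3), Ces2g (10.4), Ces2b (5.55), Ces1d (4.76) and Ces1g (1.33), some neighbours did not hold their order in every library. Ces2e was above Ces2a, Ces2c above Ces1f, and Ces1d above Ces1g in 6 of 6 libraries. Ces2a was above Ces2c in 4 of 6 libraries, and Ces2b above Ces1d in 2 of 6. Ces1f was above Ces2g, and Ces2g above Ces2b, in 5 of 6. The order of these 4 pairs thus did not hold in all libraries.

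None of the 8 genes was called between KO and WT. The comparison asked whether loss of alk-SMase went with other levels of these hydrolases, and used limma on log2(FPKM + 1) over all 13089 rows, and called a row whose Benjamini-Hochberg adjusted p was below 0.05 with a fold past 1.5. Only 1 row of the table, or 0.00764%, was called, and it was lower in KO. That count depended on the libraries used, since without K82S 1184 of 12764 rows were called, 51 higher and 1133 lower in KO, and without W89S the single call was higher in KO. In each of these fits 0 of the 8 members were called. Of the members 0 had groups without overlap, against 17.2% of all rows, and 4 of 8 were higher in KO, against 42.3%. An unadjusted p-value under 0.05 was reached by 1 member, against 12.5% of rows. The median log2 fold change was 0.56 for the 3 Ces1 members, -0.02 for the 5 Ces2 members and -0.06 for all rows.

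That member was Ces1g, whose mean was 1.89 ± 0.73 FPKM in KO mice against 0.771 ± 0.393 FPKM in WT mice (± SD of 3 mice). On the log2 scale KO exceeded WT by 0.70 ± 0.25 (SE), with a 95% interval from 0.10 to 1.29, and the adjusted p from limma was 0.393. By exact permutation of the 6 libraries, two-sided, p was 0.2, where 0.1 is the smallest that 3 against 3 libraries allow. Because Ces1g was so low, the added 1 held the value down, and with 0.1 added in its place it was 1.21 (adjusted p = 0.396 in limma). Without K82S it was 0.88 with an adjusted p of 0.0742 in limma, the lowest adjusted p over all alternatives and members.

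For Ces2e the log2 fold change was -0.03, with a 95% interval from -0.48 to 0.42, which is 0.717-fold to 1.34-fold. Its upper end passed 1.5-fold in 2 alternatives, at 1.55-fold with libraries scaled to the same summed FPKM and 1.56-fold without W90S, and its lower end was 0.624-fold without W83S. For Ces2c it was -0.02, with an interval from -0.61 to 0.58. Ces2a had a higher KO mean (203 ± 42.9 against 154 ± 66.4 FPKM, ± SD of 3 mice) and a log2 fold change of 0.48 with an interval from -0.40 to 1.36, and without W89S the value was 0.11. Ces1f had -0.21, with an interval from -0.94 to 0.52. All 4 intervals include 0.

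The intervals of the weaker genes were wider. Ces2g had a log2 fold change of -0.63, with an interval from -2.17 to 0.91. The fold change moved to -0.21 without W83S, the library with the gastric RNA, and to -1.30 without W89S. Without W89S its interval, from -2.45 to -0.15, did not include 0 (adjusted p = 0.541 in limma). Nor did that without both K82S and W89S, from -1.77 to -0.06. Ces1d had 0.56, with an interval from -0.94 to 2.05, and turned to -0.18 without K86S. Ces2b had 0.23, with an interval from -1.25 to 1.70, and was 0.91 without W83S, -0.27 without W89S and -0.0021 without K82S. For these 3 genes changes of more than 2-fold in at least 1 direction lie inside the interval. The same holds for Ces2a, up to 2.56-fold, and for Ces1g, up to 2.45-fold of FPKM + 1, while Ces1f reached down to 0.522-fold. The data thus do not show that KO and WT were alike in any of these genes. With all 6 libraries, adjusted p-values of the 7 genes other than Ces1g lay between 0.586 (Ces2a) and 0.982 (Ces2c) in limma.

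**Figure D2:**
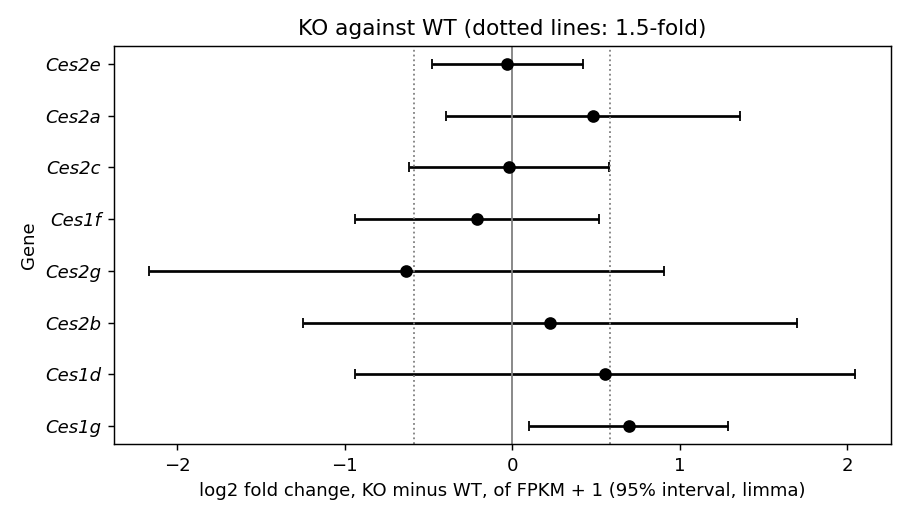
log2 fold change of FPKM + 1, KO minus WT, for each carboxylesterase gene (point) with its 95% interval from limma (line), over 3 KO and 3 WT libraries. The interval of Ces1g, from 0.10 to 1.29, is the only one that does not include 0, and those of Ces2g, Ces2b and Ces1d are the widest.

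In 7 of the 8 genes, all but Ces1g, the SD over the 6 libraries was larger than the difference between genotypes. This SD was 0.96 for Ces2g, 0.92 for Ces1d and 0.87 for Ces2b on the log2 scale, above that of 97.1%, 96.8% and 96.2% of all rows tested. Ces2g ran from 3.51 FPKM in K82S to 20.3 FPKM in W83S, a 5.79-fold range, and Ces1d spanned an 8.32-fold range. Ces2c with an SD of 0.29 was close to the median of all rows.

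Regional markers of the small intestine differed between the libraries as well. The mean level of 8 genes of the proximal small intestine, each relative to its own mean in log2, was lowest in K82S (-0.90) and W89S (-0.54), and highest in W83S (0.54) and K86S (0.62). Lactase (Lct), a brush border enzyme of the proximal and middle small intestine, had 76.3 FPKM in K82S and 163 FPKM in W89S. In the other 4 libraries it had between 243 and 490 FPKM. Slc40a1, another of the 8, did not follow this order, with 5.11 FPKM in K82S and 1.31 FPKM in W89S. It had 0.617 FPKM in K79S, 2.03 FPKM in K86S, 0.529 FPKM in W90S and 7.08 FPKM in W83S, the library with the gastric RNA. The 5 measured markers of the distal small intestine summed to 204, 223 and 112 FPKM in KO mice and 70.7, 180 and 79.4 FPKM in WT mice. K79S was thus also high, above W89S, though its proximal marker level was near the mean (-0.04). Of these, 5 of 5 had a log2 fold change above 0, against 42.3% of all rows, with 0 called. In 1 of them, Cubn, KO lay above WT without overlap, against 5.9% of all rows. The distal markers Fabp6, Slc10a2 and Fgf15 had no placed row. K82S and W89S were also the 2 lowest libraries for Ces2g and for Ces1d. In Ces2e, Ces2a, Ces2c, Ces1f and Ces2b K82S was instead above the mean of the 6 libraries. Beside the proximal marker level as a covariate in limma, 0 of 8 members were called, and Ces2g moved to -0.34 and Ces1d to 0.81. The part of regional position in these values was otherwise not tested.

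**Figure D3:**
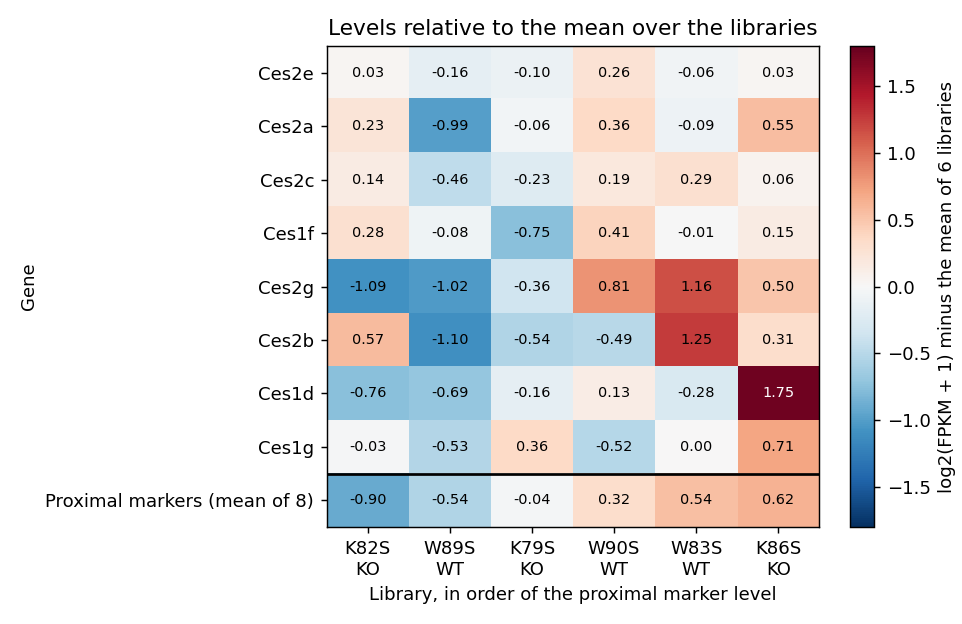
log2(FPKM + 1) of each carboxylesterase gene minus its mean over the 6 libraries, with the mean of 8 proximal small intestine markers in the bottom line and the libraries ordered by it from left to right. Ces2g and Ces1d are lowest in K82S and W89S, as the mean of the proximal markers is. Ces2a and Ces2b are high in K82S (0.23 and 0.57) and lowest in W89S (-0.99 and -1.10).

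Markers of other cell types differed between libraries, and some between genotypes. The 3 measured crypt and proliferation markers summed to 7.18 to 30.8 FPKM in KO and 31.9 to 75.4 FPKM in WT. Most of this sum was Olfm4, a crypt stem cell gene and the only 1 of the 3 whose groups did not overlap, while Top2a and Mki67 overlapped. KO lay below WT without overlap in 11.3% of all rows. Of the 5 measured plasma, B and T cell markers, 2 lay above WT in KO without overlap, against 5.9% of all rows. These were the T cell receptor complex genes Cd3e, with 4.83, 6.11 and 4.44 FPKM in KO mice and 2.71, 2.60 and 2.22 FPKM in WT mice, and Cd3g, both with an adjusted p of 0.393 in limma. Cd3e and Cd3g were named after their values had been seen. In the same list the log2 fold change was 0.62 for Jchain, -0.26 for Cd79a and -0.18 for Mzb1, and their groups overlapped. Of the 4 measured hepatocyte markers the sum was 4.06 to 10.6 FPKM in KO and 11.4 to 79.8 FPKM in WT. It was highest in W90S, where Alb reached 51.5 FPKM. Alb and Ahsg, 2 of the 4, lay below WT in KO without overlap, against 11.3% of all rows. The others overlapped, and 0 were called. The hepatocyte markers Fga, Fgb and Apoh had no placed row. The only adipocyte marker with a placed row, Fabp4, had at most 6.28 FPKM (K82S), and the macrophage markers summed to between 54.5 FPKM (K79S) and 232 FPKM (W89S). Lyz2 ranged most, from 17.5 to 184 FPKM. Of the 5 measured macrophage markers 1, Csf1r, lay above WT in KO without overlap, against 5.9% of all rows. It was named after its values had been seen, and the others overlapped. Cela1, the only tested pancreatic acinar marker, lay below WT in KO without overlap, against 11.3%. Of both lists 0 were called. The part of these cell types in the levels of the carboxylesterases was not tested.

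The carboxylesterases differ in how much sequence they share, which bears on how 50 bp reads can be assigned. Every stretch of 50 bases of each gene's longest protein-coding transcript was looked up in all GENCODE M21 transcripts of other genes. For Ces2c 42.2% of 1921 such windows occurred in another gene, 734 of them in the pseudogene Ces2d-ps. For Ces2a 22.2% did, and for Ces2b 9.56%. In the other 5 genes the share was between 1.28% (Ces1d) and 3.95% (Ces2g). Windows shared with another of the 8 genes made up at most 6.66% (Ces2c). The FPKM of Ces2c and Ces2a are therefore less certain than that of Ces2e.

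The longest stretch of the Ces2c coding sequence that Ces2d-ps repeats without a mismatch is 181 bases in exon 12, at chr8:104854081-104854261 on the plus strand, and is shown because reads from it fit both genes.
Ces2c exon 12: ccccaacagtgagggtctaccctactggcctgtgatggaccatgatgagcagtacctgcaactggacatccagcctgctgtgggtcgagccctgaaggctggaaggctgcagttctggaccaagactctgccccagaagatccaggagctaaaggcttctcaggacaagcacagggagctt

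**Figure D4:**
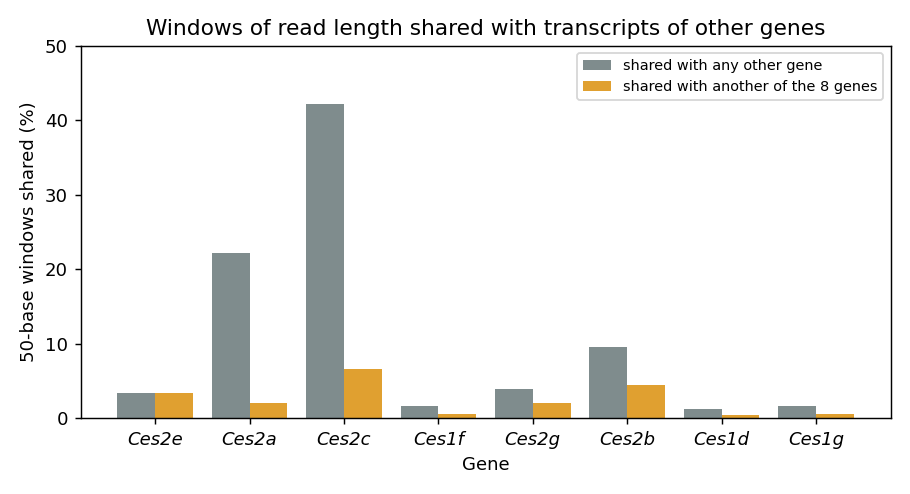
Share of 50-base windows of each gene's longest protein-coding transcript that also occur in a transcript of any other gene (grey) or of another of the 8 genes (orange), in percent. Ces2c (42.2%) and Ces2a (22.2%) stand above the other genes, which are all under 10%.

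Most of the windows that Ces2a shares, 399 of 425, are in Gm7208, a transcribed pseudogene on the minus strand of the same chromosome from 104675536 to 104682211. Gm7208 had 40.3, 45.6 and 56.0 FPKM in KO mice and 40.7, 24.2 and 50.3 FPKM in WT mice. Like Ces2a it was lowest in W89S and highest in K86S. The ratio of Ces2a to Gm7208 was 4.09 ± 0.35 (± SD over 6 libraries) and ran from 3.51 to 4.43. How many of these reads came from which gene was not tested. Gm7208 was chosen after its values had been seen.

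Among the members, Ces2e and Ces2c had the most similar profiles, with a root mean square difference of 0.21 between their centred log2 levels over the 6 libraries, and Ces2b and Ces1d the least similar (1.07). Of 8089 other genes, those nearest to the mean profile of the 8 carboxylesterases were Rgs13, a regulator of G protein signalling (0.07), Gm4246 (0.08), Bcl6, a transcriptional repressor (0.08), Tmem229b-ps (0.09) and Ero1lb, an oxidase of the endoplasmic reticulum (0.09). All 5 had under 4 FPKM in every library, and with 6 libraries such likeness is a description.

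Ces1e, or egasyn, which holds beta-glucuronidase in the endoplasmic reticulum, was the only other carboxylesterase with a placed row. It had 2.45, 2.38 and 5.41 FPKM in KO mice and 5.06, 3.48 and 7.43 FPKM in WT mice. The groups overlapped, and the log2 fold change was -0.54 (adjusted p = 0.492 in limma). Identifiers of Ces1b, Ces1c, Ces2f, Ces2h and Ces3a were not placed, and the other 6 genes of the list had no identifier under their symbol. Gusb, the gene of beta-glucuronidase, had between 2.80 and 3.90 FPKM in all libraries, and Kdelr2, a receptor that returns proteins to the endoplasmic reticulum, between 87.0 and 138 FPKM.

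Genes that work beside the carboxylesterases were also without a call. Of 11 other intracellular lipid hydrolases 0 were called, 9 were higher in KO, and the median log2 fold change was 0.15. Pnpla2, the main triacylglycerol lipase of lipid droplets, had 57.0 FPKM on average, Abhd6, a monoacylglycerol lipase, 53.7 FPKM, and Abhd12, a hydrolase of lysophosphatidylserine, 39.1 FPKM. Ces2e was thus measured above each of these on the same scale. Of 12 genes of triglyceride assembly and chylomicron secretion 0 were called and 11 were higher in KO, with a median of 0.14. Of all rows 42.3% were higher in KO.

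Of 11 tested nuclear receptors and transcription factors of liver and gut 0 were called (median log2 fold change 0.10). Nr1i2, the pregnane X receptor that responds to drugs and bile acids and is known to induce carboxylesterases, had between 48.3 and 68.8 FPKM in KO and between 49.3 and 62.9 FPKM in WT. Its log2 fold change was -0.04 (adjusted p = 0.939 in limma). Hnf4a had a mean of 183 FPKM and Hnf4g of 76.8 FPKM, and both overlapped between the groups.

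Of 12 genes of drug oxidation and conjugation 0 were called and 5 were higher in KO. Cyp3a11, a major drug-oxidising enzyme, had 106, 52.2 and 293 FPKM in KO mice and 183, 73.8 and 337 FPKM in WT mice, lowest in K82S and W89S as Ces2g and Ces1d were. Abcb1a, Gusb, Lct and Slc40a1 were named after their values had been seen. Abcb1a, the drug efflux pump P-glycoprotein, was the only gene of this list without overlap, with 130, 130 and 173 FPKM in KO mice and 82.8, 106 and 115 FPKM in WT mice. KO exceeded WT by 0.51 ± 0.21 (SE) on the log2 scale (adjusted p = 0.393 in limma), and KO lay above WT without overlap in 5.9% of all rows.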

How the data were processed

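The authors sequenced 50 bp single-end reads. After adapter removal by trim-galore, HISAT2 placed the reads on mm10 (HISAT2 and mm10 are named in the submitters' processing notes), and StringTie quantified genes. They deposited FPKM values, with 1 column per mouse and 0 unmapped columns. Tool versions are not given in the sources used here. FPKM hold no record of read numbers, so no counting interval is given, and precision rests on 3 libraries per genotype.

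Identifiers were ranked by the K79S values beside them and rows by W83S, and joined by rank with small stepwise offsets. Symbols came from GENCODE M21. Members and lists were chosen with earlier results of these data known. Genes named by rule were the 8 members, every other placed carboxylesterase, up to 3 abundant genes and any called gene of each list, the 5 genes of most similar profile, and Enpp7. Rows with at least 1 FPKM in at least 2 libraries (13089) entered limma 3.58.1 under R 4.3.3, with a trended prior, on log2(FPKM + 1), which understates changes of low genes. edgeR, which the authors used, needs counts and was not run. The test was run on simulated data, with a pass mark only where every row had the same spread. The rank join was run on simulated labels made by the same join without steps. That run could not test the stepwise offsets used here. Promoters are RefSeq windows (GRCm38.p6), which matched 5 of the 8 members. Python 3.11.15 with numpy 2.4.6 and pandas 2.3.3 made the other tables. Whether the mice came from separate litters is not given, so p-values measure the spread between these 6 libraries. Alternatives changed the filter, the pseudocount, the scaling, the weights, the trend and the libraries used. Identifiers outside the ranked stretches were left out.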

Additional observations from a re-analysis of the deposited data

How the results depend on the processing

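In each of the 17 alternatives (16 for Ces1g, which a filter at 2 FPKM removed) 0 members were called. The number of rows called over the whole table was 1, and became 0 with pseudocounts of 0.1 and 0.01, 2 with array weights, and 3 without K82S and W89S, an alternative chosen after seeing the data. It ran from 0 to 1184 when single libraries were left out, with the highest count without K82S (51 higher and 1133 lower in KO), to which array weights also gave the lowest weight (0.302). Ces2a, Ces2g and Ces1g kept their direction in every alternative. The log2 fold change of Ces2e turned to 0.16 when libraries were scaled to the same summed FPKM and to 0.0592 when scaled by the median ratio, and that of Ces2c to 0.17 and 0.0703. The first scaling moved the median of all rows from -0.06 to 0.08, so neither gene stood far from it. Ces2c was 0.0272 with the proximal marker level as a covariate, also chosen after seeing the data, and Ces2b was -0.0136 with array weights and -0.49 without K82S and W89S. Leaving out single libraries gave -0.11 to 0.10 for Ces2e, -0.25 to 0.13 for Ces2c, -0.41 to 0.11 for Ces1f, -0.27 to 0.91 for Ces2b and -0.18 to 1.07 for Ces1d. The cause was not tested. The order of the members by mean FPKM differed for 2 genes when taken over the KO or over the WT libraries alone. No paired analysis was possible because the labels give no number or name that pairs a KO with a WT mouse.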
